A study of Mus musculus with 58 samples.

Results

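Dbp, Tef, Hlf, Nfil3, Bhlhe40, Bhlhe41 and Usp2 are output genes of the circadian clock, and their RNA was followed here in mouse liver and kidney after a single dose of trichloroethylene (TCE) or tetrachloroethylene (PCE). Both are chlorinated solvents, and PCE carries a chlorine atom where TCE has its only hydrogen. The genes were found by symbol and RefSeq identifier: 7 genes with 11 annotated transcripts, out of 24077 genes with 33392 transcripts in the deposited tables. The protocol describes male B6C3F1/J mice, although the strain label of the samples reads C57BL/6. The animals were 5 to 6 weeks old at purchase, were kept for a further week on a 12 h light-dark cycle, and were dosed into the stomach between 7 and 9 in the morning. The hour at which tissue was taken is not given in the sources used here. Vehicle was 5% Alkamuls El-620 in saline at 5 mL/kg, and every animal received this vehicle with or without solvent. TCE was given at 24, 80, 240 or 800 mg/kg and PCE at 30, 100, 300 or 1000 mg/kg, which correspond to about 0.22, 0.67, 2 and 6 mmol/kg of each solvent. Each tissue had a separate vehicle group for each solvent. Of the 20 groups, 18 held 3 libraries, and the liver group at 0.67 mmol/kg PCE and the kidney PCE vehicle group held 2. Of the 58 libraries, 28 in each tissue carry a label number that recurs in the other tissue under the same solvent and dose. The labels do not say that a shared number marks one animal.

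The clock loop is driven by the CLOCK and BMAL1 proteins (BMAL1 is encoded by Arntl), which bind E-box sequences and activate the Per and Cry genes, the Nr1d genes and many outputs. DBP, TEF and HLF are the PAR bZIP activators: their genes are clock outputs, and the proteins bind D-box sequences in front of genes of drug and lipid metabolism in liver and of transport in kidney. NFIL3 (E4BP4) binds the same D-boxes as a repressor, and its gene responds to the ROR and REV-ERB receptors, so that Dbp and Nfil3 RNA typically peak at opposite times of day. BHLHE40 and BHLHE41 (DEC1 and DEC2) are repressors that compete at E-boxes. USP2 is a deubiquitinase whose RNA is strongly rhythmic in many tissues.

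Total counts ran from 30932385 to 125880542 per liver library, where the vehicle and 6 mmol/kg libraries were the deepest, and from 23247565 to 32420329 per kidney library. Levels are given as CPM (read counts scaled to a library total of 1000000) after TMM scaling (trimmed mean of M-values) within a tissue, with SD over libraries. Differences are log2 fold changes from edgeR's quasi-likelihood test with Benjamini-Hochberg adjustment over all genes tested, with a standard error or 95% interval, and a difference was called at an adjusted p under 0.05. Nothing in the labels says that replicates within a group are separate animals, so p-values measure the spread between these libraries. Hepatocyte markers summed to between 77400 and 147000 CPM in liver and to between 2710 and 5020 CPM in kidney. Proximal tubule markers summed to between 50000 and 78600 CPM in kidney and to at most 9.23 CPM in liver. One kidney library at 0.67 mmol/kg TCE held 2930 CPM of adrenal markers.

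Dbp was the member that moved most. In liver it rose from a vehicle mean of 0.87 to 10.2 CPM at 6 mmol/kg TCE, and it stood in every kidney library of that dose above every vehicle library, although the kidney difference did not pass the test. Nfil3, which acts on the same D-box sites with the opposite sign, fell in the same liver group from 110.0 to 61.2 CPM. Tef, Hlf, Bhlhe40 and Usp2 had no called dose difference in either tissue. Over 16 dose groups and 6 testable members, 2 of 96 dose tests were called and 11 had an unadjusted p under 0.05. Of all genes, 0 to 5.84% were called in a liver dose contrast and 0 to 3.85% in a kidney one. Before adjustment p was under 0.05 for 581 to 3351 of 13159 genes in liver and 604 to 2326 of 14200 in kidney. The count of 11 by itself thus says little about these members. Bhlhe41 had too few counts to test. Because these are bulk tissue libraries, fewer cells of a type and less RNA per cell cannot be told apart.

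In vehicle libraries, 5 of the 6 testable members differed between liver and kidney in a fit over all 58 libraries, beside 73% of the 14933 genes tested in that comparison. That background is so high that the count by itself says little about these genes. On the joint scale of that fit, Usp2 was at 0.656 ± 0.491 CPM in liver (SD, n = 6) and 8.15 ± 3.06 in kidney (SD, n = 5), a liver minus kidney log2 difference of -3.67 ± 0.40 (SE, edgeR adjusted p = 5.74e-11). Tef was at 1.02 ± 0.563 CPM in liver and 4.76 ± 0.752 in kidney, a difference of -2.25 ± 0.33 (edgeR adjusted p = 8.23e-08). The Tef transcripts differ in countable bases and in their count share by tissue, as given below, so this is a difference in counts. With each transcript divided by its own countable bases, Tef was at 2.6 ± 1.5 CPM per kb in liver and 8.76 ± 1.35 in kidney. Dbp was at 1.39 ± 0.371 CPM in liver and 6.4 ± 2.86 in kidney, a difference of -2.23 ± 0.43 (edgeR adjusted p = 1.02e-05).

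Hlf, the third PAR bZIP gene, was far more abundant than the other two and differed less, with 65.3 ± 12.5 CPM in liver and 98.4 ± 8.9 in kidney and a log2 difference of -0.60 ± 0.13 (edgeR adjusted p = 8.88e-05). The repressor Nfil3 went the other way. It was at 147 ± 23.1 CPM in liver and 22.5 ± 5.79 in kidney, a difference of 2.69 ± 0.24 (edgeR adjusted p = 1.9e-13). All 3 PAR bZIP activators were thus higher in kidney, and their D-box repressor was higher in liver. Bhlhe40, at 118 ± 44.9 CPM in liver and 92.4 ± 13.7 in kidney, did not pass (0.29, edgeR adjusted p = 0.258). Without TMM factors the median difference of all genes moved from 0.008 to -1.064, Bhlhe40 turned to -0.76 (edgeR adjusted p = 0.00423), and Hlf, Dbp, Tef and Usp2 stayed lower and Nfil3 stayed higher in liver.

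The same order held number by number. Among 28 numbers present in both tissues, kidney exceeded liver in all 28 for Dbp, Tef and Usp2 and in 26 for Hlf, while liver exceeded kidney in 28 for Nfil3 and in 24 for Bhlhe40. The median log2 ratios of liver to kidney were -2.33 for Dbp, -2.41 for Tef, -4.01 for Usp2, -0.715 for Hlf, 2.76 for Nfil3 and 0.545 for Bhlhe40. The Dbp ratio was narrowest, at -0.79, in number 13, a 6 mmol/kg TCE pair with 24.8 CPM in liver and 43.0 in kidney on the joint scale. Numbers 22 and 23, both at 0.67 mmol/kg PCE, were close to it at -0.84 and -0.87. Number 15, also at 6 mmol/kg TCE, was at -3.27.

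Levels were compared between genes per kb of exon sequence that no other annotated transcript shares. Only reads there were taken to have been assigned to a transcript, a counting rule that was not tested. For Dbp and Bhlhe40 this leaves out bases shared with a gene on the opposite strand, which applies only if strand was ignored in counting. Each transcript was divided by its own unshared bases and the values were summed per gene, a divisor chosen after seeing the data. In vehicle kidney the order was Bhlhe40 at 30.8 ± 4.59 CPM per kb (SD, n = 5), Usp2 at 20.5 ± 7.65, Hlf at 17.4 ± 1.58, Nfil3 at 11.1 ± 2.86, Tef at 8.76 ± 1.35 and Dbp at 4.93 ± 2.2. Each neighbouring pair but Hlf and Nfil3 had overlapping ranges. In vehicle liver Nfil3 led at 72.5 ± 11.4 CPM per kb (SD, n = 6), followed by Bhlhe40 at 39.6 ± 15.0 and Hlf at 11.6 ± 2.21. Tef at 2.6 ± 1.5, Usp2 at 1.57 ± 1.15 and Dbp at 1.07 ± 0.285 came next, with overlapping ranges. Bhlhe41 was last in both tissues as counted, at most 0.402 CPM per kb in any vehicle library, with its longer transcript listed at 0. Where a gene's transcripts were pooled over all their unshared bases, Usp2 moved to 4.44 ± 1.66 in kidney and 0.358 ± 0.267 in liver, below Dbp, and Tef to 5.08 ± 0.802 and 1.08 ± 0.6.

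**Figure D1:**
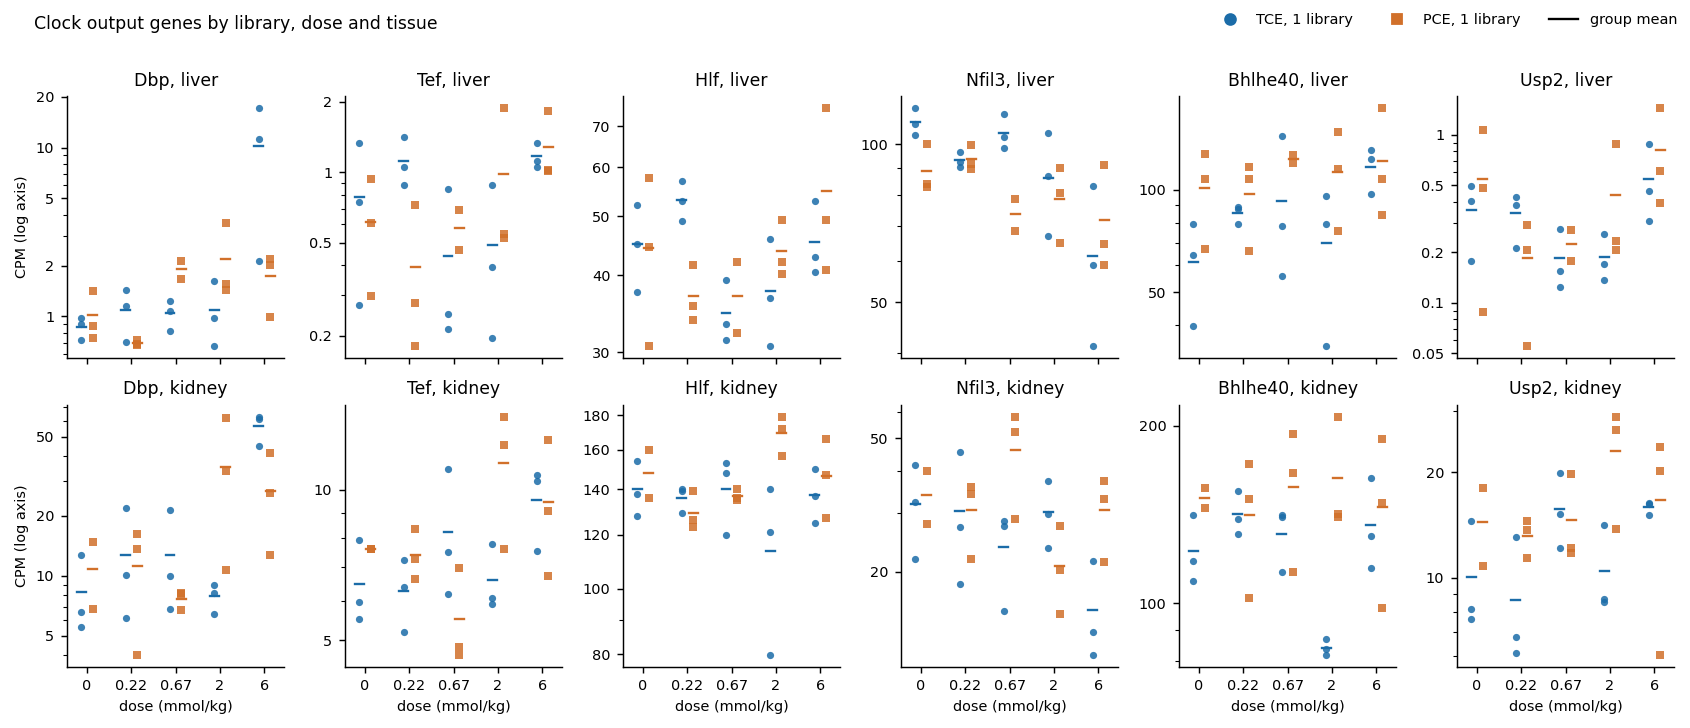
CPM (log axis, TMM scale within a tissue) of the 6 testable members by solvent and dose in mmol/kg, in liver and kidney; each point is a library and each bar a group mean. Dbp at 6 mmol/kg TCE lies above TCE vehicle in both tissues. It runs from 2.13 to 17.1 CPM in liver against at most 0.985, and from 44.8 to 62.8 CPM in kidney against at most 12.8. Single PCE libraries reach into these ranges, up to 3.56 CPM in liver and 61.7 CPM in kidney, both at 2 mmol/kg.

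Dbp lies on chromosome 7 (45705088 to 45710203, plus strand, GRCm38, the assembly also called mm10). In liver the TCE vehicle libraries were at 0.985, 0.899 and 0.727 CPM. The 6 mmol/kg TCE libraries were at 17.1, 11.3 and 2.13 CPM, so all 3 lay above vehicle, with a wide spread (SD 7.55 CPM around the mean of 10.2). The 9 libraries at the lower TCE doses lay between 0.668 and 1.63 CPM, overlapping vehicle. The log2 change at 6 mmol/kg was 3.54 ± 0.54 (SE, edgeR adjusted p = 0.00149), with an interval of 2.44 to 4.65. Leaving out the highest of the 3 libraries, replicate 1, gave 2.94, which still passed (edgeR adjusted p = 0.0116). Of 6 testable members, 2 were called in this contrast, against 1.31% of all 13159 genes. The trend over dose rank was 0.82 ± 0.16 per step (edgeR adjusted p = 0.0224), 1 member of 6 beside 0.852% of genes. The libraries of the lower doses overlapped vehicle, and the call was lost when TCE replicate 1 or 2 at 6 mmol/kg or vehicle replicate 3 was left out (edgeR adjusted p = 0.0682, 0.0804 and 0.073).

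In kidney, Dbp was at 6.58, 5.56 and 12.8 CPM in the TCE vehicle libraries and at 62.8, 61.1 and 44.8 CPM at 6 mmol/kg TCE. The 2 sets did not overlap, and the libraries at 0.22, 0.67 and 2 mmol/kg reached at most 21.9 CPM. The log2 change of 2.75 ± 0.64 had an interval of 1.43 to 4.07 but an adjusted p of 0.0821 by edgeR. It passed in DESeq2 (adjusted p = 0.00187, with 168 genes called), with the 2 vehicle groups of kidney pooled (edgeR adjusted p = 0.0277) and without TMM factors (edgeR adjusted p = 0.0467). In the other 5 of 8 alternatives it did not pass (edgeR adjusted p up to 0.123). With any of the 6 libraries left out it did not pass either (edgeR adjusted p 0.0754 to 0.347). In the main edgeR fit no member was called in this contrast, beside 0.176% of 14200 genes. An unadjusted p under 0.05 was seen for 1436 genes, 3 of them members (Dbp, Nfil3 and Tef). At 2 mmol/kg TCE kidney Dbp was at 6.48, 8.2 and 9.01 CPM, within the vehicle range. The kidney trend over TCE dose was 0.59 per step (edgeR adjusted p = 0.22). For that trend edgeR called 0% of genes. Before adjustment p was under 0.05 for 1242 genes, 3 of them members. DESeq2 called 136 genes, of which Dbp was 1.

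After PCE no Dbp difference was called. Liver libraries were at 1.42, 0.88 and 0.748 CPM with vehicle, 0.674, 0.725 and 0.683 at 0.22 mmol/kg, 2.13 and 1.67 at 0.67, 1.44, 3.56 and 1.55 at 2, and 2.03, 0.992 and 2.19 at 6. The group at 0.22 mmol/kg lay wholly below vehicle, those at 0.67 and 2 wholly above it, and the group at 6 overlapped it. Of all genes, 7.16% did not overlap vehicle at 0.22 mmol/kg, 18.8% at 0.67 and 14.4% at 2. The log2 change was 1.10 at 2 mmol/kg (edgeR adjusted p = 0.397) and 0.77 at 6 mmol/kg (interval -0.25 to 1.79, edgeR adjusted p = 0.331). By edgeR and by DESeq2 neither contrast had a called member, where edgeR called 0.182% and 5.84% of genes. At an unadjusted p under 0.05 the member count was 1 and 0, beside 1528 and 3351 of 13159 genes. The liver PCE trend for Dbp was 0.31 per step (edgeR adjusted p = 0.0781), where 11.8% of genes were called. No member was called there by edgeR, and DESeq2 called 1, Dbp. An unadjusted p under 0.05 was seen for 3 members and for 3808 of 13014 genes.

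In kidney, PCE at 2 mmol/kg gave Dbp values of 10.7, 61.7 and 33.8 CPM, and at 6 mmol/kg 26.2, 12.7 and 41.5, against 14.8 and 6.82 with vehicle. Single libraries at both doses overlapped vehicle. The log2 changes were 1.72 (edgeR adjusted p = 0.681) and 1.32 ± 0.70 (edgeR adjusted p = 0.359). EdgeR called 0.0141% of all genes at 2 mmol/kg and 3.85% at 6. None was a member by edgeR or DESeq2. At an unadjusted p under 0.05 there were 1 and 0 members, beside 868 and 2326 of 14200 genes. The kidney PCE trend, with 3.38% of genes called, was 0.47 per step for Dbp (edgeR adjusted p = 0.195). It had 0 called members by edgeR and DESeq2 and 1 at an unadjusted p under 0.05, beside 2468 of 13801 genes.

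The 2 solvents were compared at matched doses, as the PCE response minus the TCE response, in 4 doses, 2 tissues and 6 members. None of these 48 differences was called by edgeR, and 3 had an unadjusted p under 0.05. Such a p was seen for 632 to 1167 of 13159 genes per contrast in liver and 597 to 2274 of 14200 in kidney. The largest of the 48 was liver Dbp at 6 mmol/kg, at -2.77 with an interval of -4.24 to -1.31 (edgeR unadjusted p = 0.000674, adjusted p = 0.252). By DESeq2 its adjusted p was 0.0389. In that contrast 0% of genes were called by edgeR and 43 genes by DESeq2, and 1167 had p under 0.05 before adjustment. In kidney the Dbp difference was -1.43 (interval -3.31 to 0.45, edgeR adjusted p = 0.79), beside 0.0211% of genes called. Liver Nfil3 differed by 0.54 (interval -0.04 to 1.11). A missed threshold does not show that the solvents act alike.

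**Figure D2:**
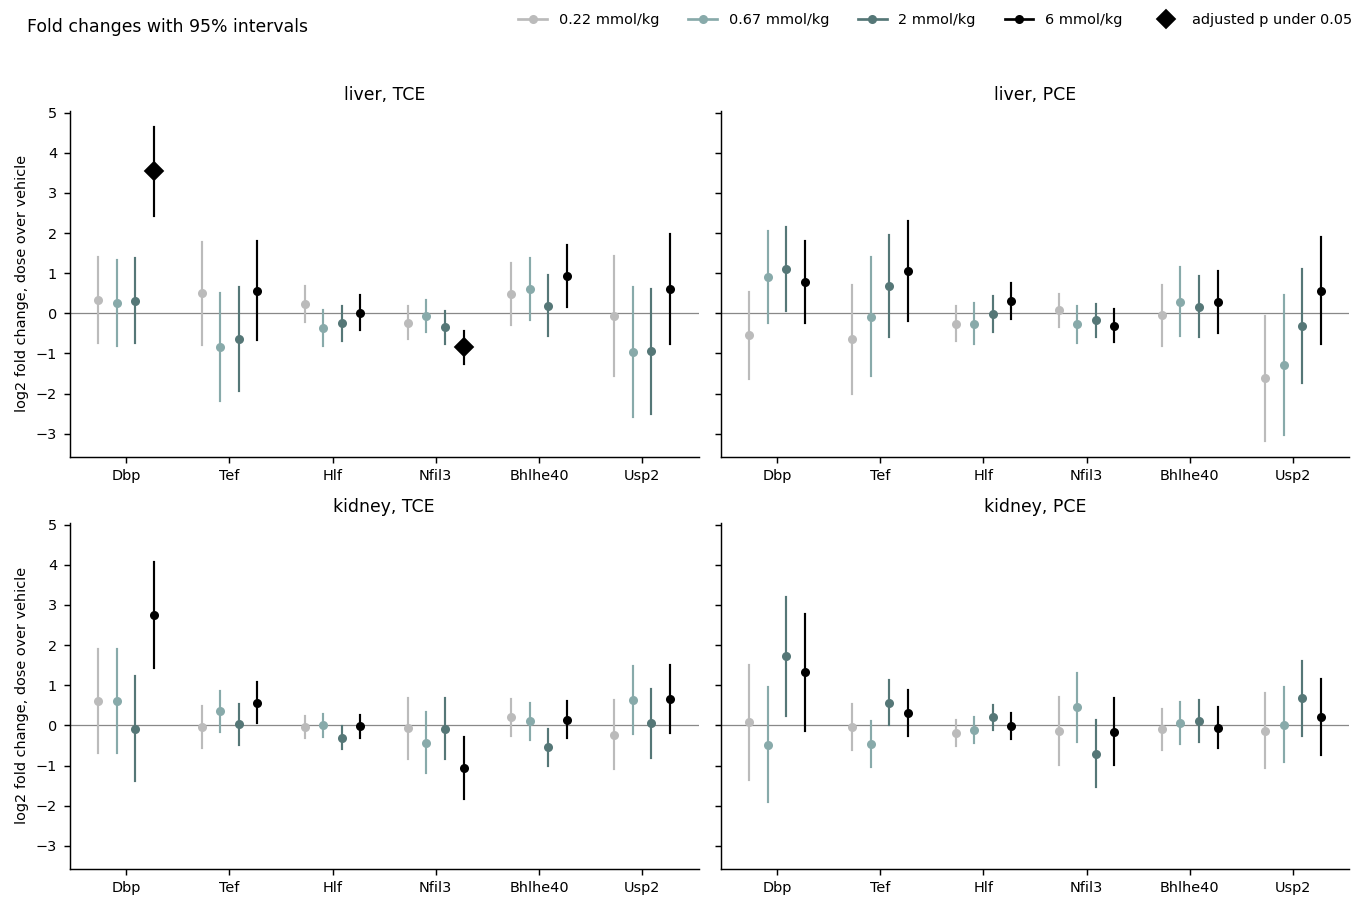
Log2 fold change against the matched vehicle (points) with 95% intervals (bars) for 6 members at each dose, in 4 panels of tissue and solvent; diamonds mark an adjusted p under 0.05. The 2 diamonds are Dbp at 3.54 and Nfil3 at -0.85, both in liver at 6 mmol/kg TCE.

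The response of Dbp did not differ between tissues beyond its error. Liver minus kidney at 6 mmol/kg was 0.78 for TCE (interval -0.79 to 2.35, edgeR adjusted p = 0.886) and -0.55 for PCE (edgeR adjusted p = 0.808). Over 4 doses, 2 solvents and 6 members, none of 48 such differences was called by edgeR or had an unadjusted p under 0.05, and DESeq2 called none. The called share of all genes at that dose was 0.328% with TCE and 0.717% with PCE.

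Tef and Hlf, the other PAR bZIP activators, showed no called change. Kidney Tef was at 5.96, 5.52 and 7.92 CPM with TCE vehicle and at 10.4, 10.7 and 7.54 at 6 mmol/kg TCE, a log2 change of 0.56 ± 0.25 (edgeR adjusted p = 0.429) with overlapping libraries. Liver Tef was at 0.272, 1.34 and 0.749 CPM with TCE vehicle, a range that contained all 3 libraries at 6 mmol/kg TCE (1.34, 1.12 and 1.05). With PCE, the liver libraries were at 0.607, 0.297 and 0.935 in vehicle and at 1.83, 1.01 and 1.02 at 6 mmol/kg, all above vehicle. Their log2 change was 1.06 (edgeR adjusted p = 0.269).

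Hlf ran from 30.7 to 74.9 CPM over the 29 liver libraries (median 42.0) and from 79.9 to 179 over the 29 kidney libraries (median 139). At 6 mmol/kg TCE it was at 52.8, 40.5 and 42.9 CPM in liver against 37.6, 52.2 and 45.0 with vehicle, so the groups overlapped. The lowest kidney library, at 79.9 CPM, was in the 2 mmol/kg TCE group, where the log2 change was -0.30 (edgeR unadjusted p = 0.0385, adjusted p = 1).

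Liver Tef, Hlf and Usp2 moved with a property of the libraries, the slope of log2 CPM on transcript length. Over 29 liver libraries the level of Tef went with this slope (Pearson r = 0.8, Spearman rho = 0.792, permutation p = 1e-05 for both, the smallest that the permutations can give). For Hlf r was 0.72 and rho 0.752 (permutation p = 2e-05 for both). For Usp2 r was 0.479 (permutation p = 0.0083) and rho 0.539 (p = 0.00302). Without the 2 libraries farthest from the median slope these became 0.781, 0.709 and 0.555. Dbp, at 0.039 (permutation p = 0.843), and Nfil3, at -0.073 (p = 0.707), did not follow it in liver. In kidney Tef did (r = 0.565, rho = 0.551, permutation p = 0.00146 and 0.00228) and so, with the opposite sign, did Nfil3 (r = -0.421, p = 0.0233, and -0.229 without the 2 farthest libraries). These are 12 relations, not adjusted for their number. The 3 liver vehicle libraries of TCE spanned slopes from -0.195 to 0.2, and the 3 at 6 mmol/kg from -0.023 to 0.029. With PCE the liver slopes did not overlap, at -0.097 to 0.026 in vehicle and 0.039 to 0.098 at 6 mmol/kg, the contrast in which all 3 Tef libraries lay above vehicle. The part of these slopes in the levels of liver Tef, Hlf and Usp2 was not tested. Tef and Hlf also varied together in liver (r = 0.857 over 29 libraries, with 1.54% of genes at least as strongly correlated with Tef), and less so in kidney (0.517).

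Tef has 2 annotated transcripts on chromosome 15, which differ in where they start. One begins at 81802421 and the other, inside the first intron of the former, at 81811414. They share their later exons except for 165 bases at the end of the transcript with the upstream start. Under the counting rule assumed above, counts came only from exon stretches unique to each. These were 307 bases of first exon for the downstream start, and 631 bases for the upstream one, the 165 last-exon bases among them. The shares below are of counts, not corrected for these lengths, so they are not shares of start use. In vehicle liver, 54.63 ± 13.36% of Tef counts (SD, n = 6) came from the downstream start, against 15.25 ± 2.95% in vehicle kidney (SD, n = 5). The ranges did not overlap, at 30.77 to 67.65% and 12.55 to 19.12%, and an exact permutation test (two-sided) gave p = 0.00433, the smallest that 6 libraries against 5 allow. Over all libraries the share ran from 0 to 83.33% in liver (median 60.5%) and from 8.39 to 23.15% in kidney (median 17.36%). Liver counts were low, from 0 to 143 for the downstream start and from 3 to 73 for the transcript with the upstream start. Single liver shares thus carry wide counting error.

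**Figure D3:**
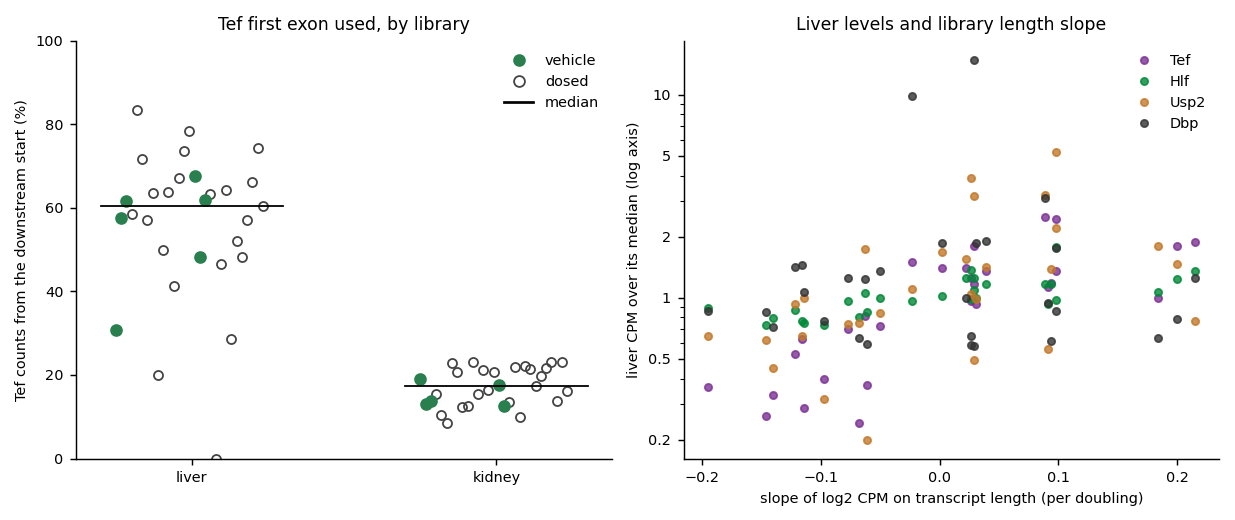
Left, the percentage of Tef counts from the downstream start in each library, by tissue; right, liver CPM of Tef, Hlf, Usp2 and Dbp relative to each gene's median (log axis) against the library's slope of log2 CPM on transcript length. Vehicle liver libraries lie at 30.77 to 67.65% and vehicle kidney libraries at 12.55 to 19.12%, and Tef (r = 0.8) climbs with the slope while Dbp (r = 0.039) does not.

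In the RefSeq promoter table (GRCm38.p6), which gives the 250 bases ahead of RefSeq's own start, both Tef entries and Bhlhe41 had an E-box, and Nfil3 had a RORE, the element bound by the ROR and REV-ERB receptors. The transcript models used for exons start further upstream at the first Tef start, at Nfil3, at Dbp and at the longer Bhlhe41 transcript. The windows shown for the first Tef start and Nfil3 therefore lie inside the first exon of those models (81802421 to 81802886 for Tef, 52980861 to 52981073 for Nfil3). The Bhlhe41 window overlaps the edge of the first exon of its longer model (145865206 to 145865558), and its E-box lies outside that exon. All windows below are shown because they are the sequence matches among the members to the elements of the clock loop described above. Motifs are in capitals, and each window is printed along the gene's own strand. The RORE core TAGGTCA stands in the Nfil3 window as its reverse complement.
Tef, upstream entry, chr15:81802534-81802563, plus strand: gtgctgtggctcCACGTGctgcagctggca
Tef, downstream entry, chr15:81811264-81811293, plus strand: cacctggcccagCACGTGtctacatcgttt
Bhlhe41, chr6:145865556-145865585, minus strand: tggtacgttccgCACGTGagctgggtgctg
Nfil3, chr13:52981040-52981069, minus strand: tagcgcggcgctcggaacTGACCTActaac

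The table held 7 promoters for 6 of the 7 members. On both strands, CACGTG was in 3 of these 7 and in 6.02% of all 32851 promoters. The D-box, searched as TTATGTAA or TTACGTAA, was in none of the 7 and in 0.931% of all. The RORE core was in 1 of 7 and in 2.23% of all. Counted back from RefSeq's start, the E-boxes lay at 127 to 122 bases in the upstream Tef entry and 138 to 133 in the downstream one, and the RORE at 12 to 6 bases in the Nfil3 entry. These are letter matches, not measured sites, and a missing match covers this window only.

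Nfil3 (chromosome 13, 52967209 to 52981073, minus strand), the D-box repressor, was at 117, 109 and 104 CPM in the TCE vehicle livers and at 41.3, 58.9 and 83.3 CPM at 6 mmol/kg TCE. All 3 treated libraries lay below all 3 vehicle libraries, and they spread more widely. The log2 change was -0.85 ± 0.20 (SE, edgeR adjusted p = 0.0324), and the trend over dose rank, -0.18 per step, did not pass (edgeR adjusted p = 0.134). The call at 6 mmol/kg was lost in 5 of 8 other analyses and when any of 5 of the 6 libraries was left out (log2 changes between -1.14 and -0.63 over the 6, adjusted p between 0.00922 and 0.191). The direction held in each.

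In kidney Nfil3 was at 41.7, 32.3 and 21.8 CPM with TCE vehicle and at 13.2, 11.3 and 21.5 at 6 mmol/kg, where every library was below every vehicle library by a small margin at the edge. The log2 change of -1.06 ± 0.37 did not pass (edgeR adjusted p = 0.289). After PCE, liver libraries at 6 mmol/kg (59.0, 91.1 and 64.7 CPM) overlapped vehicle (83.8, 100.0 and 82.7), with a log2 change of -0.31 (edgeR adjusted p = 0.323). Kidney libraries at 6 mmol/kg PCE (32.9, 37.2 and 21.3 CPM) overlapped vehicle too (40.1 and 27.8). Nfil3 also lay wholly below vehicle, without a call, at 0.22 mmol/kg TCE in liver (90.5 to 96.8 CPM). The same held at 0.67 mmol/kg PCE in liver (68.5 and 78.5 CPM) and at 2 mmol/kg PCE in kidney (14.9 to 27.4 CPM). Of all genes, 13.3%, 18.8% and 24.2% did not overlap vehicle in these groups. In the other groups below 6 mmol/kg Nfil3 overlapped vehicle.

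Within a tissue Nfil3 and Dbp ran in opposite directions. Across the 29 liver libraries, Pearson r of their log2 CPM was -0.828 and Spearman rho -0.654, and only 0.0076% of 13158 genes were as far from 0 with Dbp. It was -0.636 over the 23 libraries outside the 6 mmol/kg groups and -0.762 for deviations from group means, so it did not rest on the top dose alone. In kidney the values were -0.632, -0.48 and -0.35. These are descriptions: the libraries share group structure, and the level and error of the 2 genes come from the same libraries.

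Bhlhe40 (chromosome 6, 108660629 to 108666925, plus strand), the E-box repressor, was at 39.7, 64.4 and 79.4 CPM in the TCE vehicle livers and at 97.5, 131 and 123 at 6 mmol/kg TCE. The groups did not overlap, and the log2 change of 0.94 ± 0.37 did not pass (edgeR unadjusted p = 0.0191, adjusted p = 0.276). In kidney it lay below vehicle at 2 mmol/kg TCE, at 81.9, 83.7 and 86.9 CPM against 109, 118 and 141, and overlapped it at 6 mmol/kg (115, 163 and 130 CPM). The change at 2 mmol/kg was -0.55 (edgeR unadjusted p = 0.023, adjusted p = 1). In that contrast neither tool called a gene (0% by edgeR), and before adjustment p was under 0.05 in edgeR for 604 genes. The liver minus kidney difference of its response at 6 mmol/kg TCE was 0.80 (edgeR adjusted p = 0.64).

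Bhlhe41, its close relative, had counts at or near 0 everywhere. It had 56 counts over the 29 liver libraries and 42 over the 29 kidney libraries, between 0 and 14 in any library. All came from 1 of its 2 annotated transcripts, which has 129 unshared exonic bases. The other has 5518 such bases and was listed at 0 in every library. The cause of that 0 was not tested, so these counts may not give the level of the gene. Bhlhe41 did not pass the count filter, and no fold change is given.

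Usp2 (chromosome 9, 44067021 to 44095627, plus strand) was counted almost wholly from 1 of 3 transcripts, which gave 98.83% of its kidney counts and 90.71% of its liver counts. In kidney it was at 7.63, 8.14 and 14.5 CPM with TCE vehicle and at 16.4, 15.1 and 16.2 at 6 mmol/kg TCE. The treated libraries were tightly grouped and all above vehicle, but the log2 change of 0.65 did not pass (edgeR adjusted p = 0.639). In liver it was at 0.178, 0.404 and 0.496 CPM with vehicle and 0.879, 0.305 and 0.465 at 6 mmol/kg, which overlapped (0.61, edgeR adjusted p = 0.845).

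In liver at 6 mmol/kg TCE, 3 of 6 testable members did not overlap vehicle (Dbp and Bhlhe40 above, Nfil3 below), where 18.3% of all genes were separated in this way. In kidney 3 of 6 did not overlap (Dbp and Usp2 above, Nfil3 below), where 15.9% of genes did not. For 6 mmol/kg PCE it was 1 of 6 in liver (Tef, above), beside 30.2% of genes, and 0 of 6 in kidney, beside 31.9%.

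In liver the summed cholangiocyte markers were below vehicle at 6 mmol/kg TCE, and in some other groups. They lay between 13.2 and 16.9 CPM in vehicle and between 6.26 and 9.58 at 6 mmol/kg, without overlap, and among 4 tested markers Sox9 fell (log2 change -1.16, edgeR adjusted p = 0.0168). The summed cholangiocyte markers also lay below vehicle at 0.22 mmol/kg TCE (8.51 to 11.4 CPM) and overlapped it at 0.67 and 2. With PCE they lay below vehicle (11.7 to 14.8 CPM) at 0.22, 0.67 and 6 mmol/kg (at most 11.5 CPM), and overlapped it at 2. Their part in the Dbp, Nfil3 and Tef results was not tested. In the kidney contrast of 6 mmol/kg TCE with vehicle, macrophage markers summed to between 58.4 and 72.3 CPM against 86.1 to 124, and proximal tubule markers to between 57600 and 62700 CPM against 66100 to 78600, both without overlap and without a called marker. Their part in the kidney Dbp and Nfil3 values was not tested. Hepatocyte markers in liver at 6 mmol/kg PCE lay between 121000 and 147000 CPM against 109000 to 117000 with vehicle, and their part in the liver Tef values there was not tested. Dbp also shares 539 of its 1837 exonic bases with Sphk2 on the opposite strand, and the strand setting of the counting is not given in the sources used here. Sphk2 lay between 3.46 and 7.57 CPM in the TCE vehicle livers and between 4.83 and 5.71 at 6 mmol/kg, inside the vehicle range. In kidney it lay between 6.04 and 6.68 with vehicle and between 6.63 and 7.11 at 6 mmol/kg.

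The same-numbered libraries were then compared for covariation. For each of 6 members, log2 CPM in liver was correlated with log2 CPM in kidney over 28 numbers. Dbp had the highest value, with Pearson r = 0.721 (permutation p = 2e-05) and Spearman rho = 0.544 (permutation p = 0.00309), and 0.409% of 12477 genes were at or above it. Without numbers 13 and 14, the 2 farthest from the median in liver, r was 0.615 (permutation p = 0.001). It was 0.809 over the 15 TCE numbers and 0.622 over the 13 PCE numbers. After subtraction of group means r was 0.395 (permutation p = 0.0186), 20 of 28 numbers deviated the same way in both tissues, and 11.2% of genes were at or above that value. Without the 6 mmol/kg groups r was 0.489 (permutation p = 0.0216, n = 22).

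Bhlhe40 also covaried between tissues, with r = 0.542 (permutation p = 0.00287) and rho = 0.524 (permutation p = 0.0047), and 2.56% of genes at or above it. It was 0.407 without numbers 1 and 10 (permutation p = 0.0402), 0.414 for deviations from group means (permutation p = 0.0355, 9.84% of genes at or above), and 0.556 without the 6 mmol/kg groups (permutation p = 0.00688). Within the TCE numbers r was 0.473 (permutation p = 0.0746) and within the PCE numbers 0.446 (p = 0.126). Tef (0.309, permutation p = 0.111), Nfil3 (0.21, p = 0.285), Hlf (0.151, p = 0.437) and Usp2 (0.053, p = 0.788) did not pass. In all, 6 relations were computed and are not adjusted for their number, and the median r over all genes was 0.051 for levels and 0.118 for deviations.

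**Figure D4:**
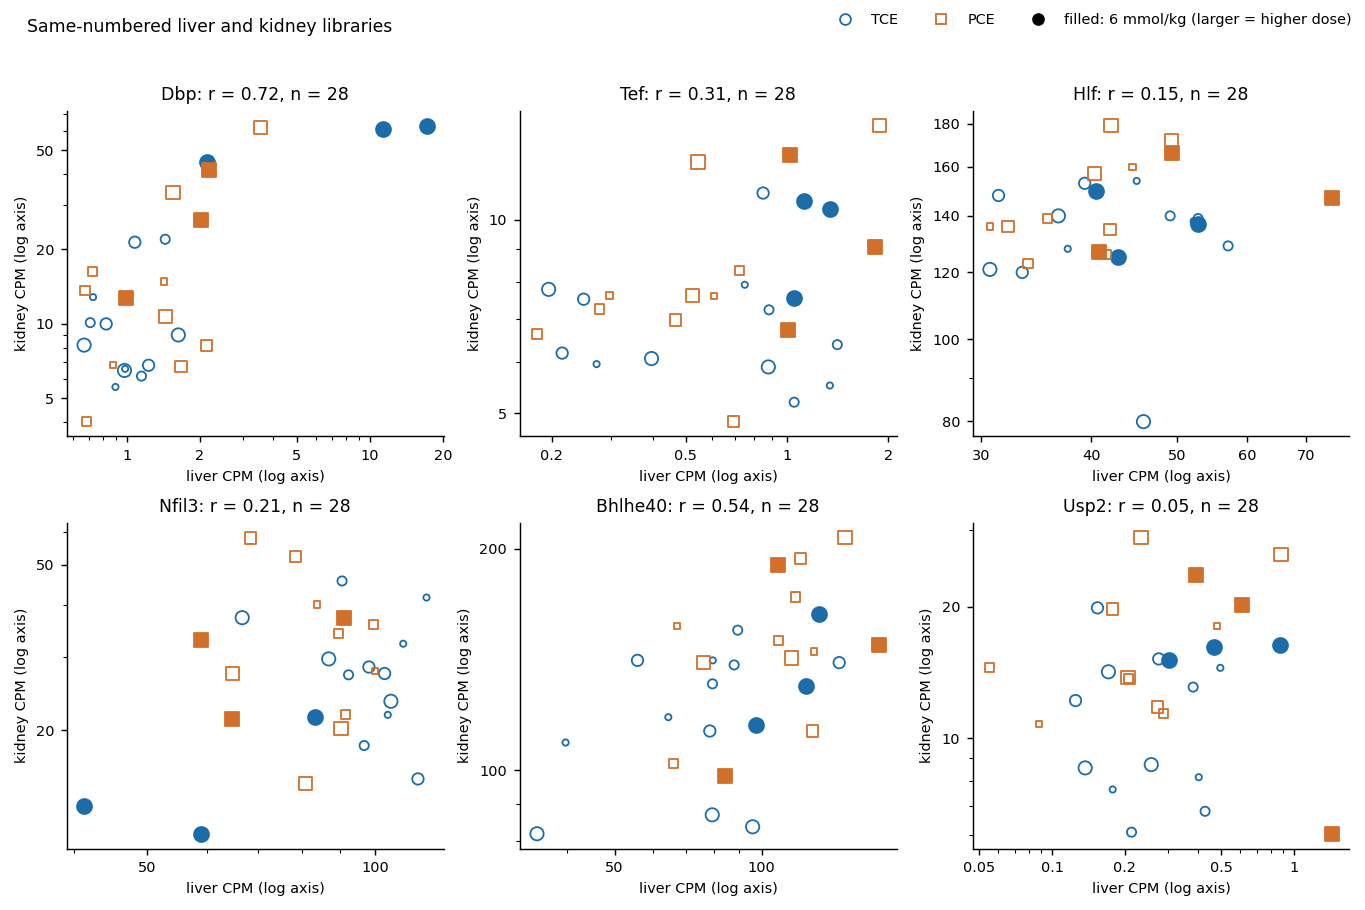
Liver CPM against kidney CPM (log axes, TMM scale within each tissue) for the 28 label numbers shared by the tissues, one panel per member, with Pearson r in the title. Numbers 13 and 14, both 6 mmol/kg TCE, lie at the upper right of the Dbp panel (r = 0.721), and the Usp2 panel shows no slope (r = 0.053).

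Dbp was next set beside the genes of the clock loop, whose list was drawn up with earlier results of these data known. At 6 mmol/kg TCE in liver, of 5 tested genes of the positive arm Npas2, a CLOCK paralog, fell from 16.1 ± 2.84 to 3.74 ± 1.24 CPM (log2 change -2.11 ± 0.30, edgeR adjusted p = 0.00123) and none rose. Of 6 tested genes of the negative arm, Nr1d2, which encodes the repressor REV-ERB beta, rose from 10.1 ± 3.55 to 42.4 ± 10.8 CPM (2.07 ± 0.38, edgeR adjusted p = 0.00691) and Cry1 fell (-1.19 ± 0.26, edgeR adjusted p = 0.0234). The list medians were -0.87 and 0.73, beside -0.04 for all genes. Among 8 other rhythmic output genes, Rgs16 (4.40 ± 0.79, edgeR adjusted p = 0.00532) and Gys2 (0.46, adjusted p = 0.0359) rose and Lonrf3 (-0.87, adjusted p = 0.0382) fell. Of all genes, 1.31% were called in this contrast. Liver Rgs16 did not rise steadily with dose. Its means were 2.01 CPM with TCE vehicle, 8.77 at 0.22 mmol/kg, 59.0 at 0.67, 4.44 at 2 and 42.7 at 6. Rgs16 encodes a regulator of G protein signalling and Gys2 the liver glycogen synthase.

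Of 11 tested genes described as targets of the PAR bZIP factors or Nfil3, none was called by edgeR in this group, 1 had an unadjusted p under 0.05 and DESeq2 called 1, Alas1, which encodes the first enzyme of heme synthesis. Their median was 0.23, and 1543 of all 13159 genes had an unadjusted p under 0.05 in this contrast. EdgeR called none among 4 clock kinases and ubiquitin ligases, 6 related bZIP factors and 5 Hes and Hey genes, each list with 1 gene at an unadjusted p under 0.05, and DESeq2 called none of these 15. At 6 mmol/kg PCE in liver, where Dbp was not called, 2 of the 11 rose, Cyp2a5 (1.43, edgeR adjusted p = 0.00962) and Cyp3a13 (0.84, adjusted p = 0.0277), both cytochrome P450 enzymes, beside 5.84% of all genes called. Of the 11, 5 had an unadjusted p under 0.05, beside 3351 of all 13159 genes. DESeq2 called 3, these 2 and Cyp3a11, whose edgeR change was in the other direction (-0.78, adjusted p = 0.0566). In the same contrast Nr1d2 rose (1.85, edgeR adjusted p = 0.00962), Npas2 fell (-1.08, adjusted p = 0.034) and Fbxl21, which encodes an F-box protein that acts on the CRY proteins, fell (-0.76, adjusted p = 0.0208). The bZIP repressor Bach1 rose (1.09, adjusted p = 0.00444) and Hes6 fell (-1.73, adjusted p = 0.00143). None of 8 other rhythmic outputs was called by edgeR, 3 had an unadjusted p under 0.05, and DESeq2 called 2, Nampt and Rgs16.

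In kidney at 6 mmol/kg TCE no gene of these lists was called by edgeR. Of all 14200 genes, 0.176% were called and 1436 had an unadjusted p under 0.05. The unadjusted p was under 0.05 for 3 of 5 positive-arm genes, 4 of 7 negative-arm genes, 3 of 9 targets, 2 of 8 other rhythmic outputs and 1 of 6 related bZIP genes, and it was not under 0.05 for any of 4 kinases and ligases or 5 Hes and Hey genes. DESeq2 called 168 of all genes in this contrast, and 7 of the listed genes: Arntl, Npas2, Ciart, Cry1, Nr1d2, Wee1 and Atf5. The 5 clock genes with the smallest adjusted p were Ciart (1.96, edgeR adjusted p = 0.0814), Npas2 (-1.44, 0.101), Arntl (-1.38, 0.105), Cry1 (-1.43, 0.111) and Nr1d2 (1.07, 0.139), chosen after their values were seen. In kidney at 6 mmol/kg PCE the drug transporter gene Abcb1a rose, 1 of 9 tested PAR bZIP targets called by edgeR (1.56, adjusted p = 0.005), beside 3.85% of all genes. Of these 9, 5 had an unadjusted p under 0.05, beside 2326 of all 14200 genes. DESeq2 called 3, Abcb1a, Cyp2a5 and Slc6a6, beside 839 of all genes. Nampt rose (0.54, adjusted p = 0.00752) and Gys2 fell (-0.47, adjusted p = 0.0492) among other rhythmic outputs, and the stress-responsive bZIP gene Atf5 rose (3.33, adjusted p = 0.00326). EdgeR called none of 5 positive-arm, 7 negative-arm, 4 kinase and ligase or 5 Hes and Hey genes. The unadjusted p was under 0.05 for 3 negative-arm genes and 1 Hes gene, and DESeq2 called Ciart, Cry2 and Hes6.

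Across libraries of a tissue, Dbp followed the same clock genes. In kidney r with Dbp was 0.904 for Ciart, a repressor of CLOCK and BMAL1, 0.833 for Nr1d2, -0.922 for Npas2 and -0.849 for Arntl. Over the 23 libraries without 6 mmol/kg these were 0.847, 0.745, -0.899 and -0.741, and for deviations from group means 0.739, 0.848, -0.831 and -0.839. Kidney Tef also followed Dbp (0.762, and 0.738 without 6 mmol/kg). In liver r was 0.678 for Nr1d2, 0.51 for Ciart and -0.79 for Npas2, and 0.449, 0.503 and -0.647 without 6 mmol/kg. Liver Cry1 had r = -0.664 with Dbp but rho of -0.241, and 0.016 without the 6 mmol/kg groups, so that value rested on those libraries. Liver Nr1d1 likewise went from 0.562 to 0.043. Arntl, at -0.298, was only weakly related to Dbp in liver. These correlations come from 29 libraries that share dose groups, and depth differs between them in liver.

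**Figure D5:**
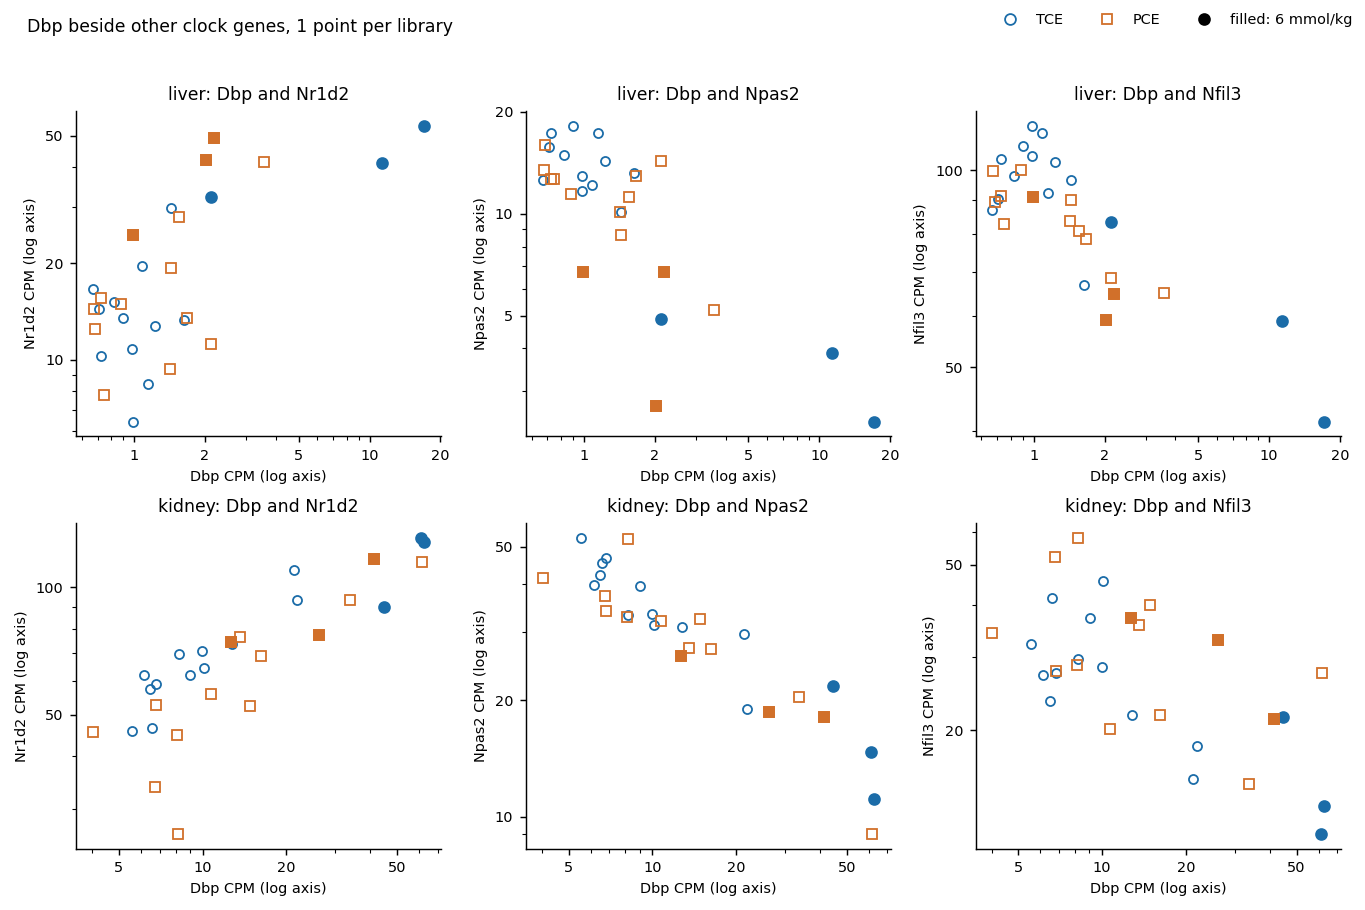
Dbp CPM against CPM of Nr1d2, Npas2 and Nfil3 in the same library (log axes), in liver and kidney, 29 libraries each. In kidney Npas2 falls as Dbp rises (r = -0.922) and Nr1d2 climbs with it (r = 0.833), and in liver Nfil3 falls as Dbp rises (r = -0.828).

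Over genes with a mean of at least 1 CPM, the other members (such as Nfil3, at -0.828 in liver) left out of the ranking, the 5 most like Dbp in liver were Nr1d2 (0.678), Acaa1a (0.647), Mcl1 (0.609), Hsd17b11 (0.598) and Cyp4a14 (0.594) among 9132 genes, and the 3 most opposed were Ppard (-0.801), Npas2 (-0.79) and Slc30a10 (-0.725), in 29 libraries. In kidney, among 10727 genes, the most like were Ciart (0.904), Nr1d2 (0.833), Epha1 (0.818), Slc35f3 (0.816) and Chaf1b (0.813), and the most opposed Leo1 (-0.925), Npas2 (-0.922) and Ppard (-0.901). Npas2 and Ppard were thus among the 3 most opposed, and Nr1d2 among the 5 most like Dbp, in both tissues.

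For the other members the most alike gene in liver was Klhl21 for Tef (0.939), Syde2 for Hlf (0.9), Ppard for Nfil3 (0.772), Klf10 for Bhlhe40 (0.73) and Fgf1 for Usp2 (0.813). In kidney it was Tln2 for Tef (0.8), Eva1a for Hlf (0.771), Mapkapk2 for Nfil3 (0.761), Per2 for Bhlhe40 (0.733) and Zbtb7a for Usp2 (0.908). No gene was the closest to the same member in both tissues. The Bhlhe40 relation to Per2 had r = 0.05 in liver.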

How the data were processed

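Total RNA libraries (TruSeq Total RNA, HiSeq-2000, per the labels' protocols) of liver and kidney were processed by the submitters with CASAVA 1.8.2, TopHat2 2.0.10 and HTSeq on mm10, per the submitters' processing notes. The deposited tables hold raw read counts per RefSeq transcript. Columns of the 0.22 and 0.67 mmol/kg groups also hold a decimal dose value, so the unit of those deposited columns was recorded under expected counts and they were rounded, although their transcript values were already whole. The deposited counts set apart 19.68 to 22.55% of a library as ambiguous. Such reads were taken to be those in exon stretches shared by overlapping transcripts, so that genes with several transcripts would be undercounted. That reading was not tested. Rows without a gene were left out.

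Transcripts were summed per symbol (29613 named by the deposited symbol, 3653 by the RefSeq table, 126 unnamed). The members, gene lists and tests were chosen with earlier results of these data known. EdgeR 4.0.16 (R 4.3.3) was used with TMM scaling, its expression filter and quasi-likelihood tests: 1 fit per tissue with 10 groups (13159 genes in liver, 14200 in kidney), 1 fit per solvent and tissue for the trend on dose rank, and 1 joint fit of 58 libraries (14933 genes) for tissue differences. Adjustment was over all genes tested. DESeq2 1.42.0 was an alternative. Correlations used log2(CPM + 0.1) and 100000 permutations (scipy 1.17.1). The analysis was tested on simulated counts. Replicates of a group differed beyond sampling noise in all 56 pairs (lowest chi-square per degree of freedom 14.6). Genes named besides the members were, for each member and tissue, the most alike gene (5 and the 3 most opposed for Dbp), and the called genes of each list at 6 mmol/kg, at most 4 per list, unless said otherwise. The result of 1 listed gene is not reported here.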

Additional observations from a re-analysis of the deposited data

How the results depend on the processing

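The 2 called dose differences of the members became 1 when only the libraries of 1 solvent entered the fit, with the replicate number as a block, and with each library's length and GC slopes in the model. They numbered 1 to 2 when 1 library was left out, and 1 to 3 over the other settings. The 1 called trend became 4 with DESeq2 and 2 with linear dose, and 0 to 3 with 1 library left out. The solvent difference had 0 called members, 1 with DESeq2, and 0 to 0 with 1 library left out. The tissue difference kept 5 to 6 called members (5 to 5 with 1 vehicle library left out), and the tissue difference of the response had 0 under every setting run. Liver Dbp at 6 mmol/kg TCE was called under all 8 alternatives (3.41 to 3.66, adjusted p 1.51e-09 to 0.0216) and with each library left out (2.94 to 4.02). Liver Nfil3 there was no longer called with library totals (-0.73, adjusted p = 0.0734), 1 solvent (-0.84, 0.1), pooled vehicles (-0.7, 0.0661), the replicate block (-0.85, 0.0532) or length and GC covariates (-0.75, 0.171), and ranged from -1.14 to -0.63 with 1 library left out. The liver Dbp trend for TCE ranged from 0.62 to 0.88. Tissue differences with 1 vehicle library left out were -2.45 to -1.9 for Dbp, -0.71 to -0.51 for Hlf, 2.57 to 2.84 for Nfil3, -2.55 to -2.05 for Tef and -4.12 to -3.44 for Usp2. With library totals the Bhlhe40 tissue difference turned to -0.76, and all tissue differences moved with the median of all genes. The same-number correlation changed sign for Hlf (-0.029) and Usp2 (-0.043) after subtraction of group means and for Nfil3 (-0.005 after subtraction, -0.214 without numbers 13 and 14, -0.332 without the 6 mmol/kg groups, an alternative chosen after seeing the data). Genes called overall at 6 mmol/kg TCE in liver were 173, and 40 to 351 under other settings; in kidney 25, and 11 to 168. At 6 mmol/kg PCE they were 768 (291 to 1610) in liver and 546 (393 to 1358) in kidney. The cause of these changes was not tested. Libraries with the same replicate number in 2 groups of a tissue correlated at a median of -0.015 in liver and 0.01 in kidney, so replicate numbers were not taken to pair samples. For liver and kidney, 12 of 28 same-numbered pairs exceeded 0.1 against 9 of 52 pairs of other numbers in the same group, and 18 of 28 correlated best with their own number, a hint from the data that the labels do not settle. Low counts limit Bhlhe41, liver Usp2 and liver Tef.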
